A study of Mus musculus with 13 samples.

Results

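A set of 161 genes was listed after both HLM006474 and SB431542 in cultured mouse astrocytes, of 1593 genes listed after any of 3 inhibitors. Members were selected on measured values: a gene had to be in the authors' deposited tables of both compounds, matched on the row number those tables carry. Each of the authors' deposited tables holds genes with an adjusted p under 0.05 and a change of at least about 1.5-fold against Vehicle. The 161 genes made up 18.8% of the 856 genes listed for HLM006474, 21.5% of the 748 listed for SB431542 and 1.06% of the 15169 genes tested. A further 695 genes were in the HLM006474 table and not in that of SB431542, and 587 were in the SB431542 table and not in that of HLM006474.

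All 13 samples were primary astrocytes, taken from the retinas and optic nerves of C57BL/6 mice, wild type in genotype and at post natal day 1-3, kept in serum-containing medium and collected after 24 h of treatment. There were 4 samples with Vehicle, 3 with HLM006474, 3 with SB431542 and 3 with another compound that targets RUNX1 and is called the RUNX1 inhibitor here. The labels give no dose, and they do not say what the vehicle was or whether the replicates were separate cultures or animals. The p-values therefore measure no more than the spread between these libraries, which can be technical. Both compounds were measured against the same 4 Vehicle samples, so a chance shift in those samples moves both changes of a gene the same way. Values per sample were not analysed here and the depth of the libraries is unknown. The precision of a value is given by the authors' standard error (SE).

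Astrocytes are glial cells that support neurons, and in the optic nerve they ensheath the axons of retinal ganglion cells. TGF-beta is a secreted ligand whose receptor kinases phosphorylate SMAD proteins, which then enter the nucleus and switch on genes of the extracellular matrix. SB431542 blocks the type I receptor kinases for TGF-beta and activin. E2F proteins are transcription factors that switch on genes of DNA replication as cells enter the cell cycle, and HLM006474 is an inhibitor of that family. The RUNX1 inhibitor acts on a different factor, RUNX1, and its binding partner CBFB.

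Cultures of this kind can hold other cells. Among 25 astrocyte and Müller glia markers, 3 were listed for HLM006474 or SB431542, and none for both, beside 1.06% of all genes tested. The radial glia and astrocyte lipid carrier gene Fabp7 had a mean normalised count of 18965 and the glial potassium channel gene Kcnj10 one of 23892, in the authors' deposited tables. Slc6a11 had one of 65.3 there, and all 3 were lower under the compound for which they were listed. Of 20 microglia and macrophage markers, 10 were listed for at least 1 of these compounds, among them the lysozyme gene Lyz2 with a mean normalised count of 24249 in the authors' deposited tables. In these bulk samples, fewer cells of a type and less RNA per cell cannot be told apart.

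Most shared genes had the same direction under both compounds. There were 93 genes lower under both, 48 higher under both, 18 lower under HLM006474 and higher under SB431542, and 2 higher under HLM006474 and lower under SB431542. By comparison, 5.64% of all genes tested were listed for HLM006474 (1.42% higher and 4.22% lower) and 4.93% for SB431542 (2.29% higher and 2.64% lower). The rule chose genes whatever their directions. A chance shift in the shared Vehicle samples moves both changes of a gene the same way, so the split is given as a description with no test.

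**Figure D1:**
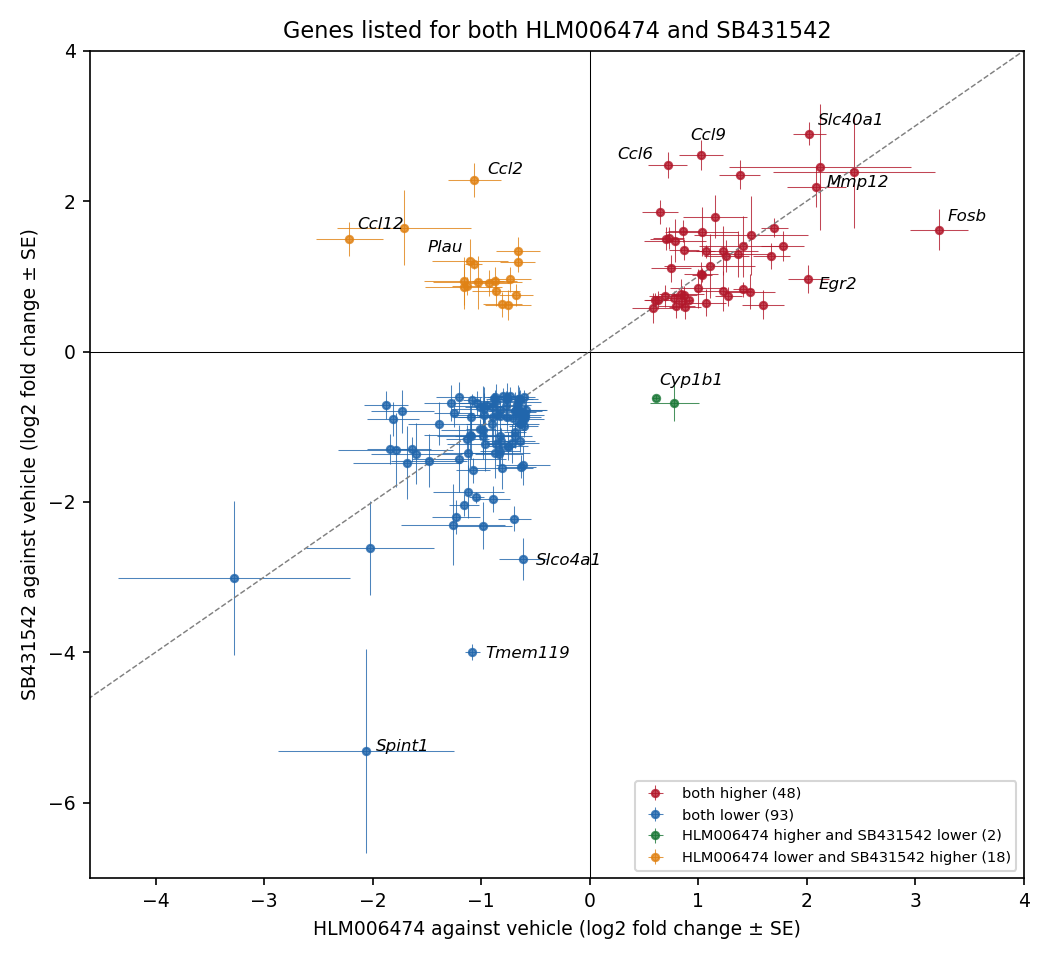
Log2 fold change against Vehicle under HLM006474 (horizontal axis) and SB431542 (vertical axis) for the 161 shared genes, with bars of 1 SE from the authors' deposited tables and a dashed line where both changes are equal. The 93 genes lower under both and the 48 higher under both lie at the lower left and upper right, respectively, and the 20 genes of opposite sign at the upper left and lower right.

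Sizes were close for most genes in the 2 large classes, from which the rule left out genes that changed too little under either compound. Genes higher under both had a median log2 fold change of 1.05 under HLM006474 and 1.27 under SB431542, and 24 of the 48 changed more under SB431542. Genes lower under both had medians of -0.87 under HLM006474 and -0.96 under SB431542, and 57 of the 93 changed more under SB431542. Mean normalised counts of the shared genes ran from 6.02 to 86887 with a median of 159, and 2 genes, Gm11346 and Spint1, were under 10. The SE of a gene was nearly the same for both compounds, with a median ratio of 1.00 and a range of 0.600 to 1.37. The predicted gene Gm14419 had the smallest change under each compound, 0.58 ± 0.20 and 0.58 ± 0.20 on the log2 scale, in the authors' deposited tables. The largest adjusted p was 0.0498 for HLM006474 (Apoc2, an activator of lipoprotein lipase) and 0.0474 for SB431542 (Ptpru, a receptor tyrosine phosphatase), in the authors' deposited tables. Values just outside those limits were not analysed here.

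The 18 genes that fell under HLM006474 and rose under SB431542 included the chemokine genes Ccl2 and Ccl12. Ccl2, which attracts monocytes, changed by -1.06 ± 0.24 on the log2 scale under HLM006474 and by 2.28 ± 0.22 under SB431542, in the authors' deposited tables. Ccl12, another monocyte attractant, changed by -2.21 ± 0.31 and 1.495 ± 0.22 in the same order, per the authors' deposited tables. These genes lie near each other at chr11:82035577-82037452 and chr11:82101845-82103399 (GRCm38.p6). The distance between the compounds was the largest of the class for Ccl12, -3.71 (95% interval -4.45 to -2.97), HLM006474 minus SB431542. No test was applied to distances in this class, because the opposite signs were part of how the genes were sorted.

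The cytokine gene Tnf, a central mediator of inflammation, changed by -1.10 ± 0.35 under HLM006474 and 1.20 ± 0.29 under SB431542 on the log2 scale, in the authors' deposited tables. Acod1, which makes the macrophage metabolite itaconate, changed by -1.71 ± 0.62 and 1.65 ± 0.50 in the authors' deposited tables, with a low mean normalised count of 18.6. Log2 values from the authors' deposited tables for Gbp5, an interferon-induced GTPase, were -0.66 ± 0.20 and 1.34 ± 0.18. Aoah, which inactivates bacterial lipopolysaccharide, changed by -0.66 ± 0.16 and 1.20 ± 0.15 on the log2 scale in the authors' deposited tables. These 4 genes have known roles in myeloid cells.

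The class also held the following genes, which were not sorted by cell type. Plau, the urokinase plasminogen activator that starts breakdown of fibrin and matrix, had the smallest errors: -1.07 ± 0.077 under HLM006474 and 1.16 ± 0.066 under SB431542 on the log2 scale, in the authors' deposited tables. The water channel gene Aqp1 changed by -1.13 ± 0.13 and 0.87 ± 0.12 on the log2 scale in the authors' deposited tables. Cdk18, a cyclin-dependent kinase, had log2 changes of -0.93 ± 0.18 and 0.91 ± 0.17 in the authors' deposited tables. For Cst7, a cysteine protease inhibitor of lysosomes, they were -1.03 ± 0.41 and 0.92 ± 0.36 in the authors' deposited tables. Phf11b, a PHD finger gene, had -1.16 ± 0.37 and 0.94 ± 0.32 on the log2 scale, from the authors' deposited tables. The remaining genes were Il2rg (the common gamma chain of cytokine receptors), Ptpn7 (a phosphatase of blood cells), Crabp1 (which binds retinoic acid), Rln1 (the hormone relaxin), Syce2 (a protein of meiotic chromosomes), Rap1gap (which turns off the GTPase RAP1) and Cbr2 (a carbonyl reductase). In the authors' deposited tables their log2 changes ran from -1.16 to -0.68 under HLM006474 and from 0.62 to 0.96 under SB431542. Over all 18 genes the median log2 change was -0.98 under HLM006474 and 0.94 under SB431542, and mean normalised counts ran from 18.6 to 782.

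The reverse pattern was found for 2 genes. Cyp1b1, a cytochrome P450 that metabolises oestrogens and retinoids and is induced by the aryl hydrocarbon receptor, changed by 0.61 ± 0.034 under HLM006474 and -0.61 ± 0.035 under SB431542 on the log2 scale, in the authors' deposited tables. Its mean normalised count was 6681. Scd4, a fatty acid desaturase, changed by 0.78 ± 0.22 and -0.68 ± 0.24 on the log2 scale in the authors' deposited tables.

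**Figure D2:**
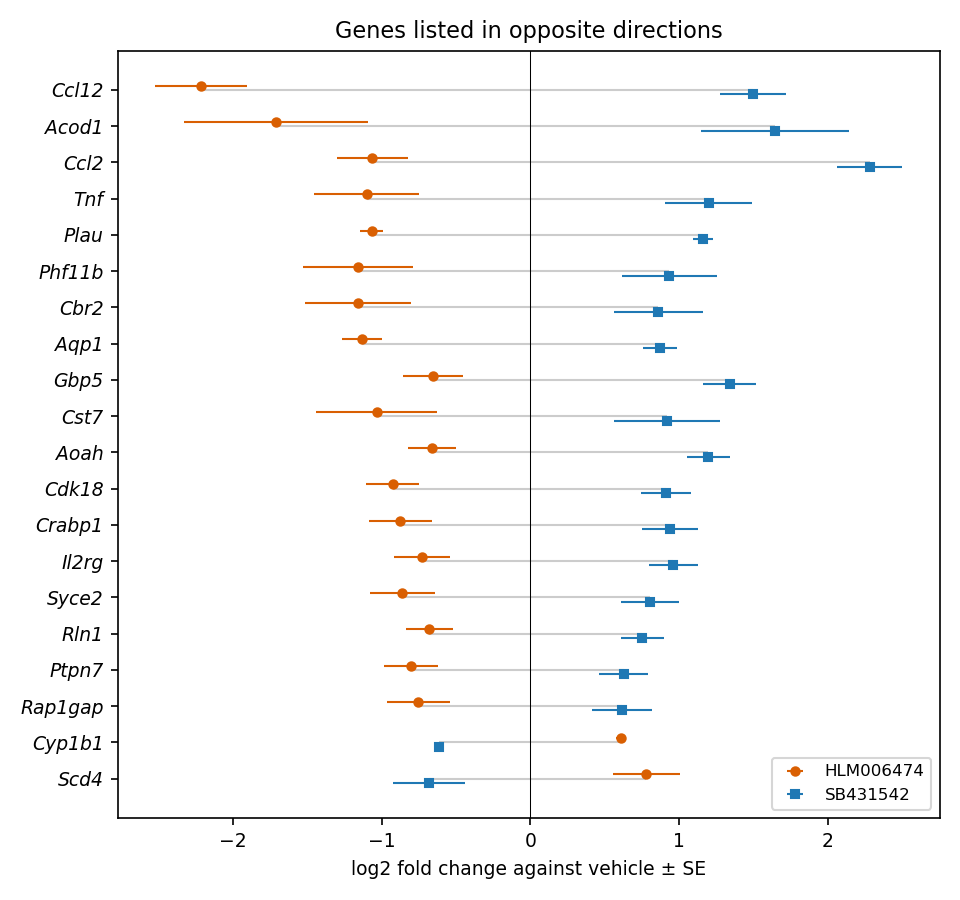
Log2 fold change against Vehicle (horizontal axis) with bars of 1 SE for the 20 genes that moved in opposite directions, HLM006474 as circles and SB431542 as squares, from the authors' deposited tables. Ccl12 and Ccl2 lie far apart, with distances of -3.71 and -3.34 (HLM006474 minus SB431542), and Cyp1b1 and Scd4 at the bottom have the signs reversed.

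Chemokines did not all fall into that class. Ccl6 and Ccl9, CC chemokines of myeloid cells, rose under both compounds. Ccl6 changed by 0.72 ± 0.18 under HLM006474 and 2.48 ± 0.17 under SB431542, and Ccl9 by 1.02 ± 0.20 and 2.62 ± 0.20, in the authors' deposited tables. The 5 shared genes of a list of 30 inflammatory mediators were thus 2 higher under both and 3 of opposite sign, and across that list 3 rose and 5 fell under HLM006474 while 11 rose and 0 fell under SB431542. Ccl6 and Ccl9 lie beside Wfdc17, a secreted protein gene of activated macrophages that changed by 1.38 ± 0.19 and 2.35 ± 0.19 in the authors' deposited tables. These 3 genes span chr11:83572917-83706269 (GRCm38.p6), and all were higher under both compounds.

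Some receptor and enzyme genes of phagocytes were listed as higher for both compounds. From a list of 35 genes of phagocyte receptors and lysosomes, 9 were shared, beside 1.06% of all genes tested. All 9 rose, with a median log2 change of 1.03 under HLM006474 and 1.48 under SB431542. Across that list HLM006474 had 9 genes higher and 1 lower (Clec12a, an inhibitory lectin receptor), and SB431542 had 22 higher and 1 lower (Trem1, an activating receptor). Clec4d, a C-type lectin receptor for fungal and mycobacterial glycolipids, changed by 1.70 ± 0.13 and 1.65 ± 0.13 in the authors' deposited tables. The beta-glucan receptor gene Clec7a changed by 1.03 ± 0.15 and 1.04 ± 0.15 in the authors' deposited tables. Cd36, a scavenger receptor for oxidised lipids, had 1.07 ± 0.087 and 1.33 ± 0.087 on the log2 scale in the authors' deposited tables. Lpl, the lipoprotein lipase that releases fatty acids, changed by 0.73 ± 0.14 and 1.51 ± 0.14 in the authors' deposited tables. For Lipa, the lysosomal acid lipase, the order of sizes was the other way round, 0.91 ± 0.044 and 0.69 ± 0.044 in the authors' deposited tables. Cd300a, Cd300lb and Cd300ld3, immune receptors encoded together on chromosome 11, were higher under both compounds, as were Pira2 and Pirb, paired immunoglobulin-like receptors on chromosome 7. Such families hold near-identical copies, and since no source used here names the read counter, values of their single members are uncertain.

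Markers of microglia moved in both directions. The myeloid enzyme gene Lyz2 rose by 1.08 ± 0.18 under HLM006474 and 0.65 ± 0.18 under SB431542 on the log2 scale, in the authors' deposited tables. Tmem119, a surface protein of resting microglia, changed by -1.08 ± 0.070 and -4.00 ± 0.11, and the purinergic receptor gene P2ry12, which guides microglial processes, by -0.82 ± 0.17 and -1.19 ± 0.17, in the authors' deposited tables. Across the 20 markers HLM006474 had 1 higher and 3 lower, and SB431542 had 2 higher and 7 lower. The part of these cells in the phagocyte, chemokine and microglial gene changes was not tested.

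Some immediate early genes, which are transcribed within minutes of a stimulus, were listed as higher for both compounds. From a list of 27, 8 were shared, beside 1.06% of all genes tested. All 8 rose, with a median log2 change of 1.54 under HLM006474 and 1.15 under SB431542, and the estimate was larger under HLM006474 for all 8. None of these 8 differences passed the adjusted test described further on. With the smaller error given there, which leaves out the shared Vehicle part, those of Egr1, Egr2 and Fosb passed. Across the list 9 genes were higher for HLM006474 and 10 for SB431542. Fosb, a component of the AP-1 transcription factor, changed by 3.22 ± 0.26 and 1.62 ± 0.27 in the authors' deposited tables. Egr1 and Egr2 encode zinc finger transcription factors of the early growth response family. Egr1 changed by 1.41 ± 0.095 and 0.82 ± 0.095, and Egr2 by 2.01 ± 0.19 and 0.97 ± 0.19, in the authors' deposited tables. The nuclear receptor gene Nr4a1 changed by 1.78 ± 0.20 and 1.40 ± 0.20, and Fosl1, another AP-1 component, by 1.37 ± 0.30 and 1.30 ± 0.30, in the authors' deposited tables. Atf3, a stress-induced transcription factor, had nearly the same change under both, 1.03 ± 0.091 and 1.02 ± 0.091 in the authors' deposited tables.

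Some genes of the stress lists were shared, beside 1.06% of all genes tested. The ferroportin gene Slc40a1, whose product exports iron, changed by 2.02 ± 0.15 under HLM006474 and 2.90 ± 0.15 under SB431542, in the authors' deposited tables. Slc7a11, the cystine importer that feeds glutathione synthesis, changed by 1.48 ± 0.23 and 0.80 ± 0.23, and the biliverdin reductase gene Blvrb by 1.28 ± 0.13 and 0.74 ± 0.13, in the authors' deposited tables. These were the 3 shared genes from a list of 24 targets of NRF2, the regulator of the oxidative stress response. HLM006474 had 19 of the 24 listed, all higher, and SB431542 had 3, all higher. Of 33 genes of the integrated stress and unfolded protein responses, 4 were shared, all higher. Among them were Slc7a11, which is on the NRF2 list too, and Atf3, which is on the immediate early list too. Across that list HLM006474 had 8 higher, and SB431542 had 7 higher and 1 lower, the stress-induced chromatin protein gene Nupr1 at -1.26 ± 0.16 in the authors' deposited table. The shared genes included Gdf15, a stress-induced hormone of the TGF-beta superfamily, at 1.26 ± 0.21 and 1.27 ± 0.21, and Trib3, a pseudokinase induced by ATF4, at 1.15 ± 0.29 and 1.79 ± 0.29, in the authors' deposited tables.

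Among the other genes higher under both, Mmp12, the macrophage elastase, had log2 changes of 2.09 ± 0.27 and 2.19 ± 0.27 in the authors' deposited tables, a difference of -0.10 (95% interval -0.86 to 0.66). Adh7, an alcohol dehydrogenase that oxidises retinol, changed by 2.12 ± 0.84 and 2.46 ± 0.83 in the authors' deposited tables, with a mean normalised count of only 15.2. Slc11a1, a metal transporter of phagosomes, changed by 1.60 ± 0.19 and 0.62 ± 0.19 in the authors' deposited tables.

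The listed TGF-beta response and matrix genes were all lower, and most of those listed for SB431542 were not shared. Of all genes tested, 4.93% were listed for SB431542, 5.64% for HLM006474 and 1.06% for both. Of 30 TGF-beta response genes, 12 were listed for SB431542 and 3 for HLM006474, all lower, and the 3 were shared. Tgfbi, a TGF-beta-induced matrix protein, changed by -1.04 ± 0.072 under HLM006474 and -1.94 ± 0.076 under SB431542, in the authors' deposited tables. Ltbp2, a latent TGF-beta binding protein family member of microfibrils, changed by -0.87 ± 0.079 and -1.22 ± 0.080, and Lrrc15, a membrane protein of activated fibroblasts, by -0.98 ± 0.26 and -2.32 ± 0.31, in the authors' deposited tables. The estimate was lower under SB431542 for all 3, and of these differences that of Tgfbi passed the adjusted test. Response genes such as Pmepa1, Skil and Smad7 were listed for SB431542 and not for HLM006474.

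From a list of 54 extracellular matrix genes, 27 were listed for SB431542 and 6 for HLM006474, all lower, and 4 were shared. Eln, which encodes elastin, changed by -0.69 ± 0.10 and -1.07 ± 0.10, and the microfibril gene Fbn2 by -1.25 ± 0.19 and -0.82 ± 0.18, in the authors' deposited tables. Thbs2, a thrombospondin that limits vessel growth, changed by -0.68 ± 0.058 and -0.78 ± 0.058, and Spp1, which encodes osteopontin, by -0.63 ± 0.071 and -0.84 ± 0.071, in the authors' deposited tables. The shared gene with the highest mean normalised count, Igfbp5, whose product binds insulin-like growth factors, changed by -0.83 ± 0.057 and -0.78 ± 0.057 in the authors' deposited tables. The collagen genes of the list that were listed for SB431542, such as Col1a1, Col1a2 and Col5a1, were not listed for HLM006474. Shared collagen genes that are not on the list were Col14a1, a fibril-associated collagen, at -1.16 ± 0.14 and -2.04 ± 0.15, and Col8a2, a network-forming collagen, at -0.90 ± 0.082 and -0.74 ± 0.081, in the authors' deposited tables.

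The 4 shared contractile genes fell under both compounds, and for 3 of them the estimate was lower under HLM006474, with no difference past the adjusted test. With the smaller error, which leaves out the shared Vehicle part, the differences of Acta2 and Actg2 passed. Acta2, smooth muscle actin and a marker of contractile cells, changed by -1.09 ± 0.078 under HLM006474 and -0.64 ± 0.078 under SB431542, in the authors' deposited tables. The enteric smooth muscle actin gene Actg2 changed by -1.88 ± 0.20 and -0.71 ± 0.19, and Tagln, an actin-binding protein, by -0.88 ± 0.074 and -0.63 ± 0.074, in the authors' deposited tables. The exception was Casq1, a calcium-binding protein of muscle stores, at -0.64 ± 0.14 and -1.20 ± 0.14 in the authors' deposited tables. Of the 23 genes on that list, HLM006474 had 2 higher and 10 lower, and SB431542 had 4 lower.

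Ligand and regulator genes were among those lower under both. Inhba, the activin subunit gene, changed by -0.99 ± 0.26 and -1.12 ± 0.26, and Ndnf, a secreted neuron-derived factor, by -1.73 ± 0.29 and -0.80 ± 0.28, in the authors' deposited tables. Runx3, the one shared gene of 17 in the E2F and RUNX families, changed by -0.98 ± 0.27 and -0.72 ± 0.26 in the authors' deposited tables. Cspg4, the NG2 proteoglycan of oligodendrocyte precursors and pericytes, changed by -1.01 ± 0.14 and -1.04 ± 0.14 in the authors' deposited tables. Oligodendrocyte lineage markers had 8 of 14 listed for HLM006474, all lower, and 1 for SB431542, so Cspg4 was the only one shared.

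Genes with large falls under both compounds were of mixed function, and several had few reads. The largest fall by the smaller of both changes was that of Gm11346, a transcribed pseudogene in the annotation, at -3.27 ± 1.07 and -3.01 ± 1.02 in the authors' deposited tables, with a mean normalised count of 6.07. Slamf9, a receptor of myeloid cells, changed by -1.64 ± 0.17 and -1.30 ± 0.17, and Ch25h, which makes the oxysterol 25-hydroxycholesterol, by -1.84 ± 0.21 and -1.30 ± 0.20, in the authors' deposited tables. Mean normalised counts were 146 and 128 for these genes. Spint1, a serine protease inhibitor, changed by -2.06 ± 0.81 and -5.32 ± 1.36 in the authors' deposited tables, at a mean normalised count of 6.02. Fstl5, a follistatin-like gene, changed by -2.02 ± 0.59 and -2.62 ± 0.62, and the connexin gene Gja5 by -1.68 ± 0.50 and -1.48 ± 0.49, in the authors' deposited tables. Pakap, which anchors protein kinase A, changed by -1.48 ± 0.35 and -1.45 ± 0.35 in the authors' deposited tables. Ptprb, a receptor tyrosine phosphatase of endothelium, changed by -1.60 ± 0.42 and -1.36 ± 0.41, and Reg1, a secreted C-type lectin, by -1.79 ± 0.53 and -1.31 ± 0.50, in the authors' deposited tables.

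**Figure D3:**
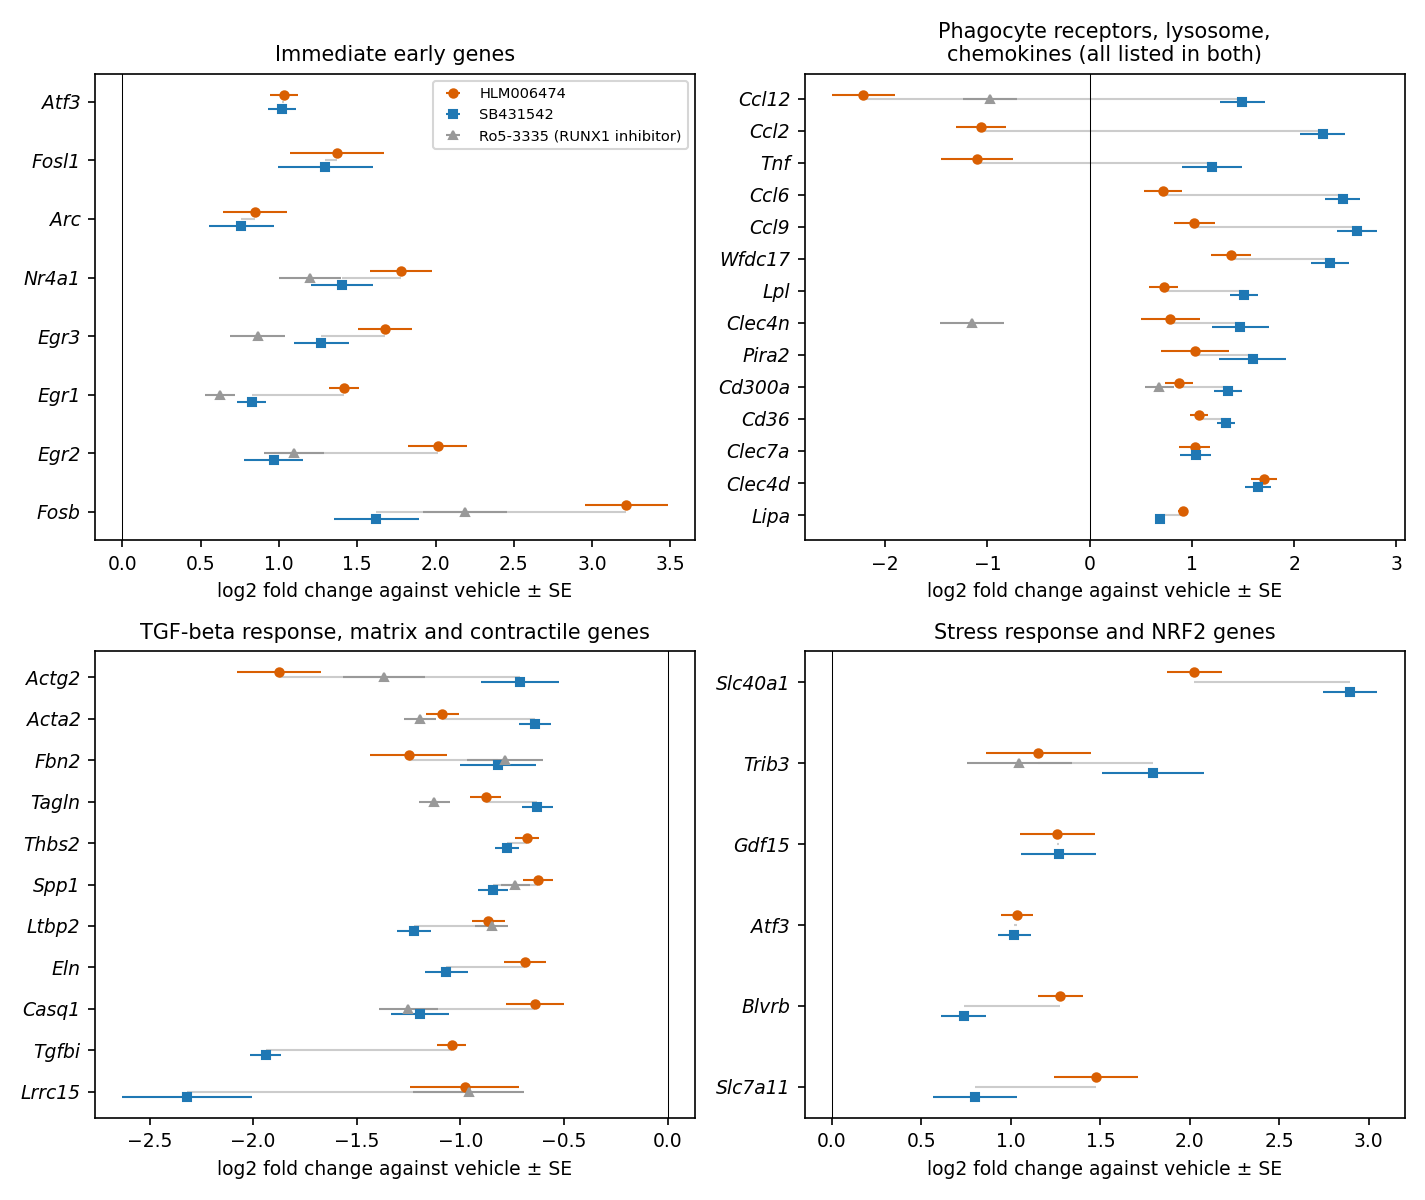
Log2 fold change against Vehicle (horizontal axes) with bars of 1 SE for shared genes on 4 groups of lists, with HLM006474 as circles, SB431542 as squares and the RUNX1 inhibitor, under its code name in the key, as triangles where listed, from the authors' deposited tables. Immediate early genes are higher under HLM006474 than under SB431542 in 8 of 8 cases, and Ccl12, Ccl2 and Tnf have changes on both sides of 0.

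Replication genes were not shared. Of 50 E2F target and replication genes, 41 were lower under HLM006474 and none was listed for SB431542. For 35 mitosis genes the numbers were 14, all lower, and none. Over all genes tested, 5.64% were listed for HLM006474, 4.93% for SB431542 and 1.06% for both. No interferon response gene, reactive astrocyte gene or cholesterol synthesis gene was shared, and neither was a marker of endothelium, pericytes and fibroblasts, neurons, photoreceptors and pigment epithelium, or Schwann cells and meninges. These lists held 9 to 32 genes each, so at a share of 1.06% the absence of a shared gene says little about them. Of the 161 shared genes, 45 were on at least 1 of the 23 lists and 116 on none.

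Whether the compounds differed in size was tested for the 141 genes that moved the same way. The choice of genes did not fix the sign of that difference, but it was made on the same values and limited its size. Genes listed for a single compound could not enter, so the test describes differences among the shared genes only. The z test (2-sided, Bonferroni adjustment over all 15169 genes tested) set the difference of the log2 fold changes against the root of the summed squared SE. That error includes the shared Vehicle samples and is too large for a difference in which they cancel. At an adjusted p under 0.05 the test called 8 genes (5.67%), and at an unadjusted p under 0.05 it called 43 (30.5%). The unadjusted count takes no account of how the genes were chosen, so it is a description only. The 8 all changed more under SB431542. Of the 43, 17 had risen, 10 of them more under SB431542 and 7 more under HLM006474, and 26 had fallen, 19 further under SB431542 and 7 further under HLM006474.

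Tmem119 had the largest difference in z, with a fall 2.92 (95% interval 2.66 to 3.17) deeper under SB431542 on the log2 scale and an adjusted p of 4.34e-108 in the z test. Its fall under HLM006474 was somewhat deeper than the class median of -0.87, while its fall under SB431542 was the deepest apart from that of Spint1. For Tgfbi the difference was 0.90 (95% interval 0.69 to 1.10), adjusted p = 1.18e-13 in the z test. F11r, a junctional adhesion molecule, differed by 1.53 (95% interval 1.08 to 1.97), having changed by -0.69 ± 0.15 and -2.22 ± 0.17 in the authors' deposited tables (z test, adjusted p = 3.04e-07). Slco4a1, an organic anion transporter, differed by 2.15 (95% interval 1.46 to 2.84), with changes of -0.61 ± 0.22 and -2.76 ± 0.28 in the authors' deposited tables (z test, adjusted p = 1.89e-05). Olfml3, a secreted olfactomedin-like protein of microglia, differed by 0.51 (95% interval 0.31 to 0.71), with changes of -0.75 ± 0.072 and -1.26 ± 0.075 in the authors' deposited tables (z test, adjusted p = 0.0127).

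The other 3 genes rose more under SB431542. For Ccl6 the difference, HLM006474 minus SB431542, was -1.76 (95% interval -2.25 to -1.26), adjusted p = 4.44e-08 in the z test. Ccl9 differed by -1.59 (95% interval -2.15 to -1.03), adjusted p = 0.000335 in the z test. Cd300ld3 changed by 0.65 ± 0.17 and 1.86 ± 0.16 in the authors' deposited tables and differed by -1.21 (95% interval -1.66 to -0.76) (z test, adjusted p = 0.00175).

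Genes that changed more under HLM006474 did not pass that threshold. Egr1 differed by 0.59 (95% interval 0.33 to 0.85) and Fosb by 1.60 (95% interval 0.86 to 2.34) on the log2 scale, with adjusted p of 0.176 and 0.353 in the z test. For Actg2 and Acta2, which fell further under HLM006474, the differences were -1.16 (95% interval -1.71 to -0.62) and -0.44 (95% interval -0.66 to -0.23), with adjusted p of 0.464 and 0.763 in the z test. With an error that leaves out the Vehicle part, 24 genes passed in place of 8. These 24 held 17 that changed more under SB431542 and 7 that changed more under HLM006474, the latter being Egr1, Egr2, Fosb, Lipa, Slc11a1, Acta2 and Actg2.

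For 106 of the 141 genes the estimates differed by less than 1.5-fold, and for 31 the whole 95% interval lay within 1.5-fold in either direction. The intervals include the shared Vehicle part and are too wide, so the count of 31 may be too low. The choice of genes had left out those that changed too little under either compound. The median absolute difference was 0.27 on the log2 scale, and the median width of the interval to either side was 0.52. The width varied among genes with high counts. For Nr4a1, with a mean normalised count of 2099, the interval ran from -0.17 to 0.93. It was narrower for some others. Igfbp5 differed by -0.05 (95% interval -0.20 to 0.11), Thbs2 by 0.10 (95% interval -0.06 to 0.26), Atf3 by 0.01 (95% interval -0.24 to 0.26) and Tns1, a focal adhesion protein gene, by 0.00 (95% interval -0.26 to 0.26).

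**Figure D4:**
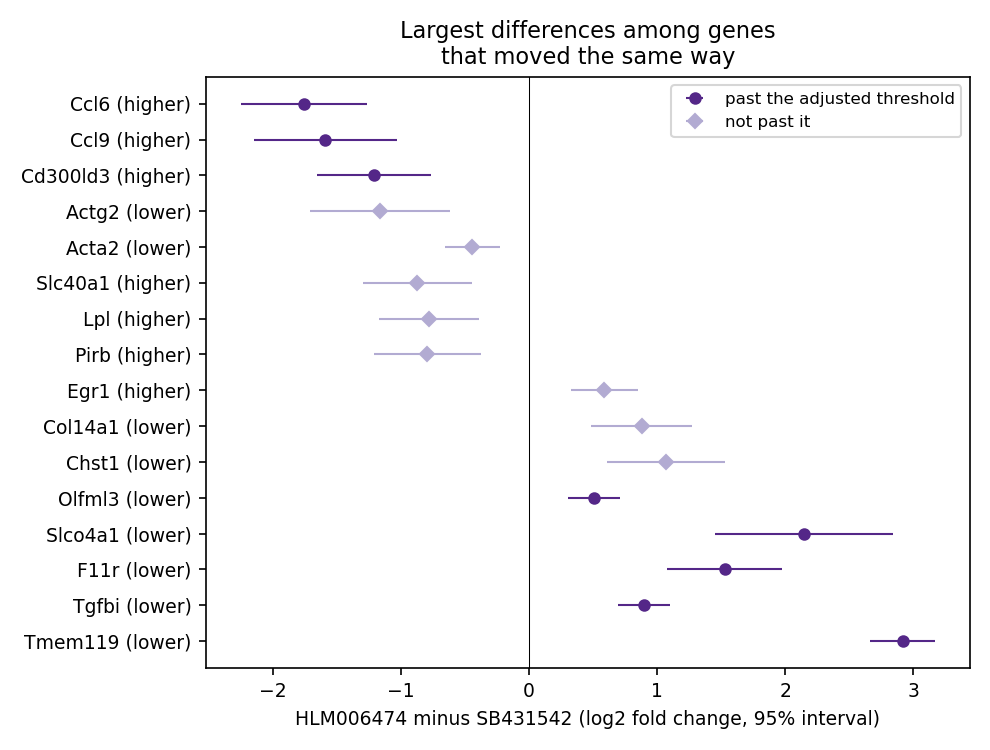
Difference between the compounds, HLM006474 minus SB431542, on the log2 scale (horizontal axis) with its 95% interval for the 16 same-direction genes with the largest differences relative to error, 8 in each sense. The intervals include the shared Vehicle part and are too wide. Dark circles mark the 8 genes past the adjusted threshold and pale diamonds the others; the direction of each gene against Vehicle stands beside its name.

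The RUNX1 inhibitor was listed for 57 of the 161 genes, 17 higher and 40 lower. Over all 13561 genes tested for it, 2.93% were listed, 0.605% higher and 2.32% lower. It was compared with the same Vehicle samples, so these listings are not independent of the other ones. Of the genes higher under both compounds 17 were also higher under the RUNX1 inhibitor, and of those lower under both 38 were also lower. Fosb changed by 2.19 ± 0.27, Egr1 by 0.62 ± 0.096 and Acta2 by -1.19 ± 0.078 under the RUNX1 inhibitor in the authors' deposited tables. The exceptions in direction were Clec4n, a dectin receptor for fungal mannans that changed by -1.15 ± 0.31 under the RUNX1 inhibitor and rose under both others, and Ccl12, at -0.97 ± 0.26, in the authors' deposited tables. The other 19 genes of opposite sign were not listed for the RUNX1 inhibitor, and neither were Tmem119, Tgfbi or Slc40a1. Of all shared genes, 10 had a mean normalised count below the smallest in the table of that inhibitor, 21.6, so they lie outside the range of counts that table covers.

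All 161 genes matched a RefSeq gene (GRCm38.p6), and 158 were protein coding. Some were neighbours: 32 genes lay in 14 groups with gaps of at most 500 kb, and in 9 of these groups all genes were of one direction class. The same count was not made for all genes tested, so whether these numbers are unusual is unknown. Acta2 (chr19:34240336-34255585) and Ch25h (chr19:34473783-34475148) were lower under both compounds, and Lipa (chr19:34492316-34527474), which lies beside them, was higher under both. Of the 160 genes found in the GENCODE annotation, 47 had exons that overlapped those of another gene, 11 of them on the same strand, and whether strand was used in counting is not given in the sources used here.

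Bases before the start sites were read for the 120 genes with a promoter entry in RefSeq (GRCm38.p6). The SMAD-binding letters CAGACA, sought on both strands in the 250 bases before any listed start, were found for 19 of 65 genes lower under both (29.2%, exact binomial 95% interval 18.6 to 41.8). They were found for 7 of 37 genes higher under both (18.9%) and for 2 of 16 genes lower under HLM006474 and higher under SB431542 (12.5%). The share was 24.2% over all 120 genes and 19.3% over all 27025 genes of the promoter table. The AP-1 letters TGACTCA were present for 7.50% of the 120 genes and 5.16% of all genes, with 4 of 37 higher under both and 5 of 65 lower under both, and the NRF2 and MAF letters TGACNNNGC for 11.7% and 11.5%. The E2F letters TTTCCCGC were present for 0.833% and 1.03%, and TTTGGCGC for 1.67% and 0.485%. The CArG box, the element bound by serum response factor and added after the data were seen, was present for 2.50% and 1.62%. A match describes letters only.

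The following 4 promoters are shown because each belongs to a gene of the groups above and holds one of these motifs, in capitals. Thbs2 (chr17:14694263-14694512, minus strand) and Spp1 (chr5:104434861-104435110, plus strand), both lower under both compounds, hold the SMAD letters, read as the reverse complement. Egr2 (chr10:67537316-67537565, plus strand) holds a CArG box, and Mmp12 (chr9:7347124-7347373, plus strand), which rose under both, holds the AP-1 letters as the reverse complement. The windows of Egr2 and Mmp12 precede starts that lie within those genes, downstream of other listed starts. Each is printed 5′ to 3′ on the strand of the gene.
Thbs2: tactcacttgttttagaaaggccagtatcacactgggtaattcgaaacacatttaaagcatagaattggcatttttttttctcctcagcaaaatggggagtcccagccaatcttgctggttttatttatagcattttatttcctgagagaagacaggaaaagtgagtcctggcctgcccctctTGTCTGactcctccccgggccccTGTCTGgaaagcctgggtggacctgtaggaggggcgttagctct
Spp1: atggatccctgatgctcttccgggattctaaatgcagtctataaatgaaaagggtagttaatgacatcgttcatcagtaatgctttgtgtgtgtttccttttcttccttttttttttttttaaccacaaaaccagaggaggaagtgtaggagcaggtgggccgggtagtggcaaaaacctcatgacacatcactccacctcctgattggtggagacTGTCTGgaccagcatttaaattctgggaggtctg
Egr2: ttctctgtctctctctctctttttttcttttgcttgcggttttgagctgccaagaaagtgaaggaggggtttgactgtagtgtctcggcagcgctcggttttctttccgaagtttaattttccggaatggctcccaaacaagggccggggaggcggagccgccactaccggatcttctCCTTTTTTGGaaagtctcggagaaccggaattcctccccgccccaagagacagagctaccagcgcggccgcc
Mmp12: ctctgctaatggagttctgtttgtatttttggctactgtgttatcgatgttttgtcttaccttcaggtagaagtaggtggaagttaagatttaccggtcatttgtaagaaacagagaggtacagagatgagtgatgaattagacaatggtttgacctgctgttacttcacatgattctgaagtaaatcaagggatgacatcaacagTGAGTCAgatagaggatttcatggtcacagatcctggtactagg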

How the data were processed

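RNA sequencing was done in 13 samples, and the files used hold the authors' comparisons of each compound with Vehicle. The submitters' processing notes name the tools CASAVA 1.8, STAR 2.7 and DESeq2 1.30.1 and the build GRCm38. Strandedness, read counter and annotation were not given in the sources used here. For each gene the authors' deposited tables hold a mean normalised count, a signal averaged over libraries, and a log2 fold change with a standard error. They also give the authors' Wald score and p-values, raw and adjusted, per the file headers. A gene has the same mean count in all 3 tables. Values per sample were not analysed here, so depth is unknown and the authors' standard errors give the precision.

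Tables were joined on the row number the authors deposited. The number of genes tested was recovered from the ratio of p to adjusted p. It was 15169 for HLM006474 and SB431542 and 13561 for the RUNX1 inhibitor, which made 81.1%, 80.5% and 83.6% of the checked ranks whole within 0.02. Differences were tested by a 2-sided z test with Bonferroni adjustment over 15169 genes, a threshold of 4.65 in z. The alternative error, without the Vehicle part, was 0.756 times as large, taking equal spread in all groups. The code was tested on simulated data. Python 3.11.15, pandas 2.3.3 and scipy 1.17.1 were used.

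Genes were named by rule: in each direction class the 8 with the largest smaller-of-both changes, leaving out symbols that are Gm or Rik numbers, the 8 largest differences in each sense, those nearest the limits and any on a list. A few others (such as Cyp1b1, Igfbp5, Aqp1, Gbp5, Aoah, Cd300lb, Col8a2, Gm11346 and Tns1) were chosen after their values were seen. Members, gene lists and markers were chosen with earlier results of these data known.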

Additional observations from a re-analysis of the deposited data

How the results depend on the processing

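With an adjusted p under 0.01 in both tables, 1 gene was higher under HLM006474 and lower under SB431542, against 2. The reverse class held 12 genes, against 18, and the shared growth factor genes were 2, against 3. The E2F and RUNX families had 0 shared genes, against 1 (Runx3). Of 22 counts, 20 moved by at most 1.5 times. With an absolute log2 change of at least 1 in both tables, 48 genes were shared, 21 higher under both, 22 lower under both, 0 higher under HLM006474 and lower under SB431542, and 5 the reverse. Of these 48 genes, 20 were on a list, 14 were listed for the RUNX1 inhibitor and 3 passed the test of a difference. The shared genes fell to 0 for extracellular matrix, contractile and E2F and RUNX genes, to 1 each for TGF-beta response, NRF2, growth factor and microglia genes, and to 5 each for immediate early and phagocyte genes, so 19 of 22 counts moved by over 1.5 times. With the error without the Vehicle part, 24 differences passed in place of 8. Within 100 bases before the start, SMAD letters were present for 8.33% of genes, against 24.2% in 250 bases, and the share over all genes of the promoter table was 7.49%, against 19.3%. A mean count of at least 50 moved none of 22 counts by over 1.5 times, and matching on gene symbol none of 5. At that mean count the shared TGF-beta response genes were 2, against 3. No paired analysis was possible because the tables used hold no replicate values, and for the same reason no replicate was left out. Depth is unknown, so limits of detection were not computed.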
